A study of Mus musculus with 4 samples.

Results

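Transcripts of 9 CXC chemokine genes (Cxcl1, Cxcl2, Cxcl3, Ppbp, Pf4, Cxcl9, Cxcl10, Cxcl14 and Cxcl16) were followed in single immune cells of regenerating mouse muscle. The genes were chosen by symbol from a list of neutrophil-attracting, platelet-type and interferon-induced family members, and they were 9 of the 27998 genes counted. CD45+ cells had been isolated from the tibialis anterior of male mice aged 8 to 12 weeks at 2 or 4 days (dpi2, dpi4) after cardiotoxin, a snake venom toxin that kills muscle fibres, and RNA was read from the 3′ ends of transcripts of single cells in droplets. All mice carried Bach1 fl/fl, in which loxP sites flank exon 4 of Bach1, the gene of a heme-binding transcriptional repressor. The controls carried Bach1 fl/fl alone, whereas the mice labelled KO (Bach1-cKO) also carried Lyz2-Cre, whose promoter is active in the myeloid lineage and not in lymphocytes, fibroblasts or endothelial cells. Each of the 4 groups (control dpi2, KO dpi2, control dpi4, KO dpi4) was 1 library, so that genotype, animal and library cannot be told apart, no test between groups was possible, and all intervals and detection floors given here cover counting error only.

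CXC chemokines are small secreted proteins that steer leukocytes along gradients through G protein-coupled receptors. Cxcl1, Cxcl2, Cxcl3 and Ppbp bind Cxcr2 on neutrophils, Cxcl9 and Cxcl10 are induced by interferons and bind Cxcr3 on activated T and NK cells, and Pf4 is a heparin-binding protein best known from platelet granules. Cxcl16 is made as a membrane protein that Adam10 and Adam17 shed and that binds Cxcr6, and Cxcl14 is made mainly by stromal and epithelial cells. After muscle injury, neutrophils enter before monocytes, which then become the macrophages that clear dead fibres.

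The libraries held 57010520 to 80228489 unique molecular identifiers (UMIs, counts of distinct RNA molecules), and 3433 to 5721 cells per library passed the filters, with medians of 10702 to 15157 UMIs. Clustering gave 23 clusters, of which 13 drew more than 90% of their cells from 1 library, and any pair of libraries shared 1 to 11 barcodes. Hmox1, a gene repressed by Bach1, had 499 and 424 UMIs per 1000000 UMIs of the library (CPM) in the control libraries and 8226 and 6362 CPM in the KO libraries. Lyz2, the gene into which the Cre was inserted, had 9465 and 16284 CPM in the controls against 17.4 and 21.9 CPM in the KO libraries. Bach1 itself had 188 and 187 CPM at dpi2 and 211 and 217 CPM at dpi4, and reads from the 3′ end of the transcript lie outside the deleted exon, so they do not check the deletion. Between 6.61% and 19.9% of barcodes exceeded the limit on mitochondrial reads, more at dpi4 than at dpi2.

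Classes were named from marker genes as macrophage-like, monocyte-like, neutrophil-like, dendritic cell-like and T or NK cell-like, and since these names were rebuilt they may differ from those of the study. Macrophage-like cells numbered 2020 in control dpi2, 1105 in KO dpi2, 3349 in control dpi4 and 2741 in KO dpi4, monocyte-like cells 2515, 979, 52 and 51, and neutrophil-like cells 623, 810, 128 and 36 in the same order. Different clusters held most of the macrophage-like cells in each library, and most of the monocyte-like and neutrophil-like cells in the dpi2 libraries, whereas cluster 4 held most dendritic cell-like cells in all 4. Macrophage-like cells lay mainly in clusters 1 and 14 (control dpi2), 5 (KO dpi2), 2, 8, 13 and 16 (control dpi4) and 3, 7 and 12 (KO dpi4). At dpi2, monocyte-like cells lay in clusters 0 and 11 in the control and in cluster 6 in the KO library, and neutrophil-like cells in cluster 10 in the control and in cluster 9 in the KO library. Cluster 15, with 94 cells in control dpi2 and 493 in KO dpi2, stayed unnamed. Its leading genes were Pdcd1lg2, Il1f9, Mirt1, Gstm1 and Itpr2. In sums of UMIs over a library, fewer cells of a type and less RNA per cell cannot be told apart, so levels are given as CPM, from here on per 1000000 UMIs of a class in a library.

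On GRCm38 (mm10), 7 of the 9 genes lay on chromosome 5 and all were annotated as protein coding. Ppbp (chr5:90768518-90770063), Pf4 (chr5:90772435-90773383), Cxcl3 (chr5:90786103-90789600), Cxcl1 (chr5:90891241-90893115) and Cxcl2 (chr5:90903871-90905938) lay in this order on the plus strand within 137 kb. Cxcl9 (chr5:92321347-92328079) and Cxcl10 (chr5:92346638-92348889) were neighbours on the minus strand. Cxcl16 (chr11:70453983-70459984) and Cxcl14 (chr13:56288643-56296551) lay alone, both on the minus strand. Cxcl1, Cxcl2 and Cxcl3 are close paralogs, and how the counting divided reads that fit more than 1 of them was not examined, so their separate values carry that uncertainty.

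RefSeq promoter windows of GRCm38.p6, from 250 bases before to 50 bases after the annotated start, were found for 8 of the 9 genes (not for Cxcl16). The windows of the 3 neutrophil-attracting genes and of Cxcl10 are printed because each holds an NF-kB motif and because the former were higher and the latter lower in the KO library at dpi2, and that of Ppbp because Ppbp was higher too and its window holds no such motif. Capitals mark the motif matches, each read 5′ to 3′ on the strand of the gene: Cxcl1 (chr5:90890995-90891294, plus), Cxcl2 (chr5:90903649-90903948, plus), Cxcl3 (chr5:90785851-90786150, plus), Ppbp (chr5:90768268-90768567, plus) and Cxcl10 (chr5:92348840-92349139, minus).
Cxcl1: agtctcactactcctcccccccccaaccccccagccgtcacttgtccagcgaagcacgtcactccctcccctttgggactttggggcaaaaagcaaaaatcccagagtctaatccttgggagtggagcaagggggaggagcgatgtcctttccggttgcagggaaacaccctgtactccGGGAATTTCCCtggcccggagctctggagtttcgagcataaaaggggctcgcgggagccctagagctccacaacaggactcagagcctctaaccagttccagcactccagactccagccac
Cxcl2: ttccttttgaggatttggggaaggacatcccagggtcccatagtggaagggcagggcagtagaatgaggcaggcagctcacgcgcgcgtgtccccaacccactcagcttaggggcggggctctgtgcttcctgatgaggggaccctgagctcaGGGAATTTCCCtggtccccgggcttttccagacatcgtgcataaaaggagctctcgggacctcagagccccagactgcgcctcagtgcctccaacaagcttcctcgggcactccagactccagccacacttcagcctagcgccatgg
Cxcl3: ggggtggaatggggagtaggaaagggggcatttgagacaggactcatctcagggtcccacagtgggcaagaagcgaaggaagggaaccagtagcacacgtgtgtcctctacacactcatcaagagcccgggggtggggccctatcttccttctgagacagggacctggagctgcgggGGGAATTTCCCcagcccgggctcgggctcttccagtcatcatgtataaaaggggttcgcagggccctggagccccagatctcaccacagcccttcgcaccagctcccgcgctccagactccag
Ppbp: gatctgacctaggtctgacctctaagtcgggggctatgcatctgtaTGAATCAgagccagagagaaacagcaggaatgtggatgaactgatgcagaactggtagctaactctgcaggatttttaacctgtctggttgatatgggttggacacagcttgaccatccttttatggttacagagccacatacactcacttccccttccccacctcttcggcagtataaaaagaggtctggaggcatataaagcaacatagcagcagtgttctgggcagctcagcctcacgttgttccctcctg
Cxcl10: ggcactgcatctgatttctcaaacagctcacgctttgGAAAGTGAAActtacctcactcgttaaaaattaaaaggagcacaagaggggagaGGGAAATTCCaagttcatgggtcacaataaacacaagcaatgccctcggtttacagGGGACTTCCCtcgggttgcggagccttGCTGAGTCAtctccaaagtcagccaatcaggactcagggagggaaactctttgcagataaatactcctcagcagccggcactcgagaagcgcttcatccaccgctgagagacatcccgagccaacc

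The capitals in Cxcl1, Cxcl2 and Cxcl3 are 1 near-palindromic stretch each, matched by the NF-kB motif on both strands, at 71, 97 and 73 bases before the start. Cxcl10 held 2 NF-kB matches (159 and 103 bases before the start), an interferon-stimulated response element (213 bases before) and a TPA response element (TRE, 74 bases before) that overlaps an antioxidant response element (ARE), the element that BACH1 binds with small MAF proteins. Ppbp held a TRE 204 bases before its start, and Cxcl9 a TRE 31 bases after. Cxcl14 held an interferon-stimulated response element and a gamma-activated sequence, and Pf4 held none of the motifs searched. Of 32851 promoter windows of this length, 4.51% held the NF-kB motif, 3.44% the interferon-stimulated response element (GAAANNGAAA), 8.30% the gamma-activated sequence (TTCNNNGAA), 7.81% the TRE (TGANTCA) and 12.4% the ARE (TGACNNNGC), on either strand. A match describes letters in a window and no binding was measured.

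**Figure D1:**
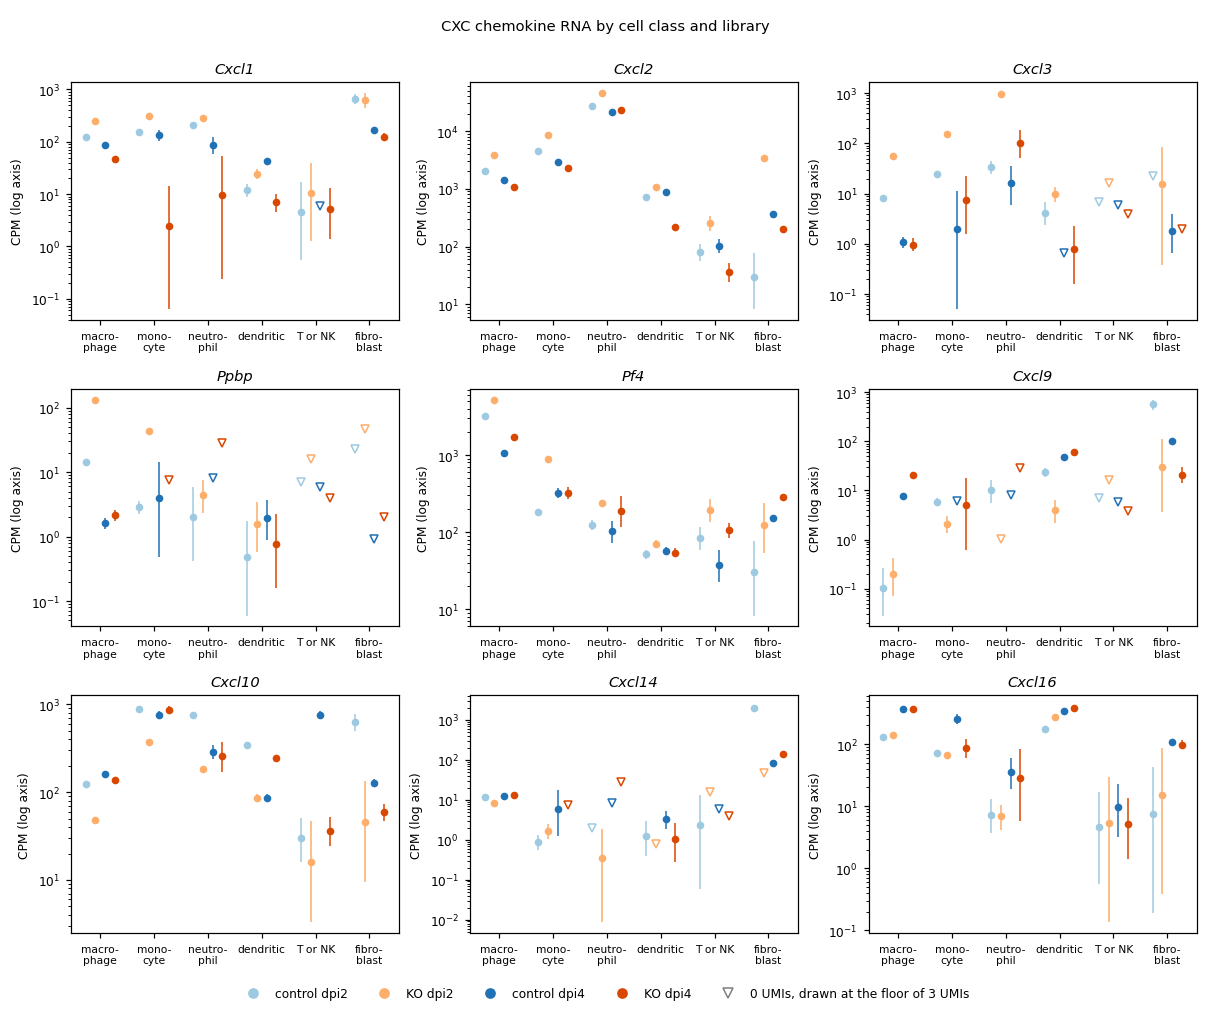
Level of each of the 9 CXC chemokine genes (1 panel each; CPM on a log axis) by cell class in the 4 libraries, with 95% Poisson intervals of the counts. Open triangles mark 0 UMIs and stand at the level of 3 UMIs. Cxcl2 stands highest in neutrophil-like cells of all 4 libraries (21658 to 45144 CPM), and Cxcl3 in neutrophil-like cells of KO dpi2 (967 CPM).

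Transcripts of the neutrophil attractants were higher in the KO than in the control library at dpi2, in macrophage-like, monocyte-like and neutrophil-like cells alike for Cxcl3, and by less for Cxcl1 and Cxcl2. A difference was counted as a change when it was at least 2-fold, its 95% interval left out equality and the pair of libraries held at least 50 UMIs of the gene. By that rule, 4 of 8 members with enough UMIs changed in macrophage-like cells at dpi2 (Cxcl1, Cxcl3 and Ppbp up, Cxcl10 down), where 5.01% of 11107 genes did. In monocyte-like cells 6 of 8 changed (Cxcl1, Cxcl3, Ppbp and Pf4 up, Cxcl9 and Cxcl10 down) against 4.59% of 9981 genes, and in neutrophil-like cells 2 of 5 (Cxcl3 up, Cxcl10 down) against 8.97% of 5753 genes. In dendritic cell-like cells 4 of 7 changed (Cxcl1 and Cxcl3 up, Cxcl9 and Cxcl10 down) against 2.57% of 8136 genes, and over all kept cells 6 of 9 (Cxcl2, Cxcl3 and Ppbp up, Cxcl9, Cxcl10 and Cxcl14 down) against 6.19% of 12280 genes. The median log2 difference of the members was 0.80 in macrophage-like, 0.99 in monocyte-like and 0.73 in neutrophil-like cells. The median of all genes was -0.01, -0.00 and -0.30, so that a gene at the level of the others in neutrophil-like cells has a log2 difference of -0.30. Cxcl9 in macrophage-like cells and Cxcl14 in monocyte-like cells had too few UMIs for the rule.

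**Figure D2:**
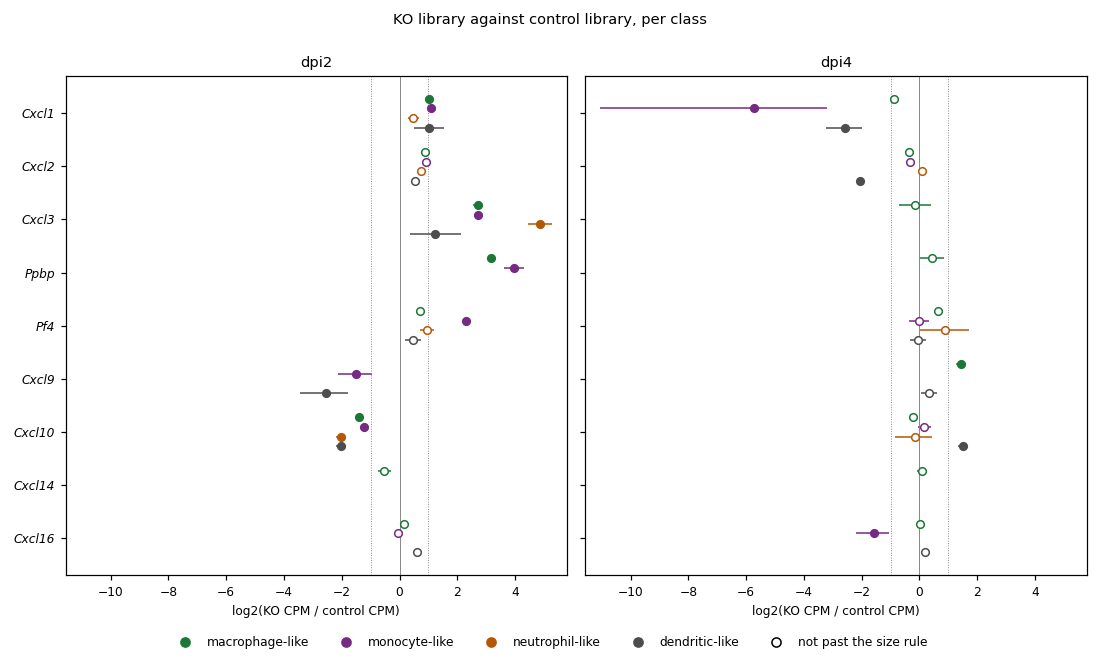
Log2 of the KO over control level of each CXC chemokine gene by cell class, at dpi2 and at dpi4, with 95% intervals of the counts. Filled points passed the rule for a change and dotted lines mark 2-fold. At dpi2 Cxcl3 and Ppbp lie to the right and Cxcl10 to the left in macrophage-like, monocyte-like and neutrophil-like cells (Ppbp under the UMI minimum in the last), and at dpi4 most points lie near 0.

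Cxcl3, a ligand of Cxcr2, rose in macrophage-like, monocyte-like and neutrophil-like cells at dpi2. In neutrophil-like cells its level was 33.4 CPM in control dpi2, 967 CPM in KO dpi2, 16.1 CPM in control dpi4 and 104 CPM in KO dpi4. The KO dpi2 library stood apart from the other 3, and its ratio to control dpi2 was 29.0 (95% interval 21.9 to 39.1, from 50 and 2834 UMIs). In macrophage-like cells Cxcl3 had 8.38, 55.4, 1.08 and 0.970 CPM in the same order, a ratio of 6.62 (5.87 to 7.48) at dpi2. In monocyte-like cells it had 24.3, 157, 1.99 and 7.53 CPM, a dpi2 ratio of 6.48 (5.93 to 7.08). Dendritic cell-like cells had the lowest levels of these classes, 4.17 and 9.71 CPM at dpi2 (ratio 2.33, 1.28 to 4.41, from 17 and 37 UMIs), and the log2 difference of 1.22 there was 0.43, below 2-fold, with no doublets removed. No Cxcl3 UMI was found in T or NK cell-like cells of any library. After every cell was thinned to 2000 UMIs, Cxcl3 was seen in 2.19% of neutrophil-like cells in control dpi2 (95% interval 1.05 to 3.99) and in 28.4% in KO dpi2 (25.2 to 31.8). None of 97 and 37 T or NK cell-like cells held it, for which the floor of 3 counts, not a Clopper-Pearson bound, stands at shares of 3.09% and 8.11%. The unthinned median depth of neutrophil-like cells was 2299 and 3418 UMIs and that of T or NK cell-like cells 3913 and 4623 UMIs, and 166 and 53 neutrophil-like cells were too shallow to be thinned.

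Cxcl2, also a ligand of Cxcr2, was present in nearly all neutrophil-like cells. Its level there was 27152 CPM in control dpi2, 45144 CPM in KO dpi2, 21658 CPM in control dpi4 and 22992 CPM in KO dpi4, a dpi2 ratio of 1.66 (1.64 to 1.68). Macrophage-like cells had 2061, 3828, 1393 and 1091 CPM (dpi2 ratio 1.86, 1.84 to 1.87), and monocyte-like cells 4496, 8473, 2912 and 2329 CPM (dpi2 ratio 1.88, 1.87 to 1.90). These differences exceeded counting error and were below 2-fold as measured, close to the limit: the log2 difference of Cxcl2 was 1.03 in neutrophil-like cells with median-ratio scaling and 1.01 in macrophage-like cells with no doublets removed. Thinned to 2000 UMIs, 95.6% of neutrophil-like cells in control dpi2 and 99.7% in KO dpi2 held a Cxcl2 UMI, as did 64.2% and 81.6% of macrophage-like cells. T or NK cell-like cells, which are not known as a source, held it in 18.6% and 35.1%, with 80.7 and 256 CPM, so that the level taken as background was also higher in KO dpi2. Over all kept cells Cxcl2 was 3460 CPM in control dpi2 and 8440 CPM in KO dpi2, a ratio of 2.44 (2.43 to 2.45). Control levels of each class, weighted by the KO shares of UMIs, gave 0.44 of this log2 difference of 1.29. The other 0.85 lay in levels within classes. More of the KO cells were neutrophil-like or in cluster 15. The split was computed in this order only, and a class held different clusters in each library, so it assigns no cause. Cluster 15 had 23233 CPM of Cxcl2 in control dpi2 and 43774 CPM in KO dpi2, and its share of all Cxcl2 UMIs went from 2.52% to 17.7%.

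Cxcl1, the third neutrophil attractant, had 126, 255, 85.0 and 46.0 CPM in macrophage-like cells of control dpi2, KO dpi2, control dpi4 and KO dpi4. The dpi2 ratio was 2.03 (1.96 to 2.10), close to the 2-fold limit. Monocyte-like cells differed by 2.10 (2.01 to 2.19), from 151 to 317 CPM, and dendritic cell-like cells by 2.03 (1.42 to 2.93), from 12.0 to 24.4 CPM. With libraries clustered separately, the log2 difference of Cxcl1 was 0.82 in monocyte-like cells, below 2-fold, and -0.70 in dendritic cell-like cells, where 1 cell held 41.9% of the Cxcl1 UMIs in KO dpi2. In neutrophil-like cells the levels were 209 and 289 CPM, a ratio of 1.38 (1.21 to 1.58). Cxcl1, with fewer UMIs in all, was concentrated in fewer macrophage-like cells than Cxcl2. The 5% of cells with the most held 67.3% of Cxcl1 UMIs in control dpi2 and 51.3% in KO dpi2, against 25.3% and 19.7% of Cxcl2 UMIs. Macrophage-like cells with a Cxcl1 UMI after thinning held Cxcl2 in 94.6% of cases in control dpi2, against 60.6% of those without, and in 96.4% against 78.4% in KO dpi2. In KO dpi2, Cxcl1 was seen in 29.7% of monocyte-like cells with Cxcl3 (21.6 to 38.8) and in 13.7% of those without (11.4 to 16.2), and in 29.5% against 17.4% of macrophage-like cells (18.5 to 42.6 and 15.1 to 19.9). In neutrophil-like cells the shares were 7.91% (4.67 to 12.4) and 11.1% (8.55 to 14.0). The intervals overlap in macrophage-like and in neutrophil-like cells and not in monocyte-like cells.

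Transcripts of another cell type moved with these genes. The summed level of 10 neutrophil markers, all above 0, was 148 CPM in macrophage-like cells of control dpi2 and 316 CPM in KO dpi2, 322 and 563 CPM in monocyte-like cells, 222 and 590 CPM in dendritic cell-like cells, and 55901 and 77589 CPM in neutrophil-like cells. In T or NK cell-like cells it was 48.4 and 229 CPM, with 4 of the 10 at 0 in each library. The part of neutrophil RNA in the Cxcl2 and Cxcl3 levels of the other classes was not tested.

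**Figure D3:**
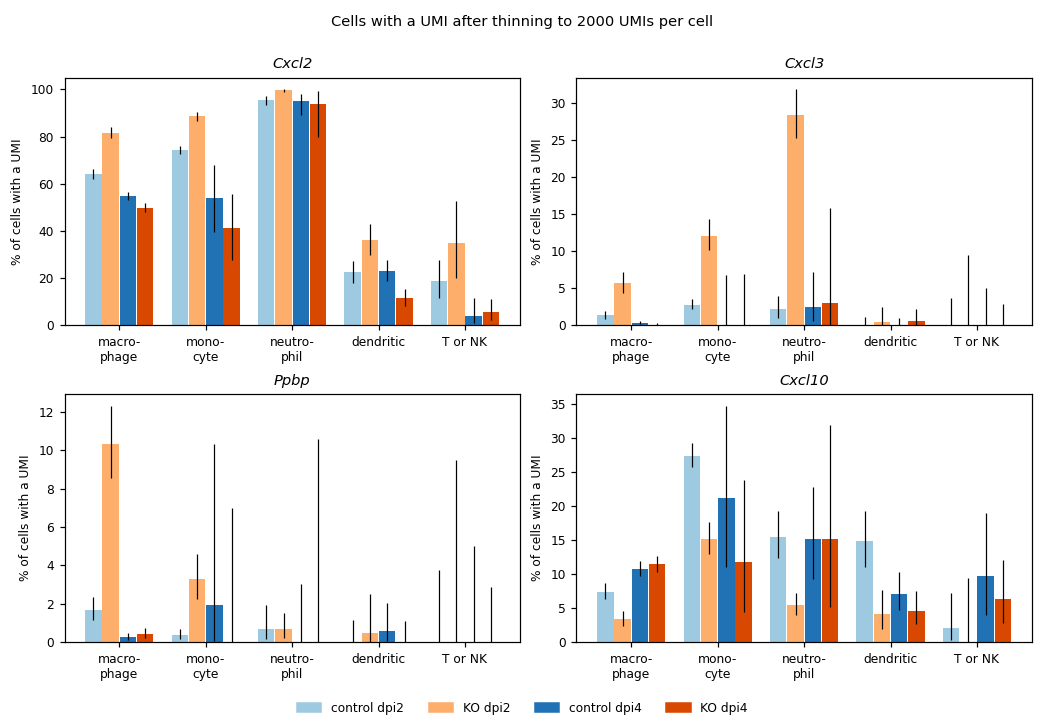
Percent of cells with at least 1 UMI of Cxcl2, Cxcl3, Ppbp and Cxcl10 after thinning each cell to 2000 UMIs, by class and library, with 95% Clopper-Pearson intervals. Cxcl3 reached 28.4% of neutrophil-like cells and Ppbp 10.3% of macrophage-like cells in KO dpi2, against 2.19% and 1.68% in control dpi2, while Cxcl10 was seen in 15.2% against 27.4% of monocyte-like cells.

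Most UMIs of the platelet-type genes were found in macrophage-like cells in these libraries. Ppbp, whose product is cut into a Cxcr2 ligand, had 14.6 CPM in macrophage-like cells of control dpi2, 129 CPM in KO dpi2, 1.61 CPM in control dpi4 and 2.17 CPM in KO dpi4. The KO dpi2 library was highest, at 8.88 times control dpi2 (8.12 to 9.72). In monocyte-like cells Ppbp had 2.83 and 44.0 CPM at dpi2, a ratio of 15.5 (log2 difference 3.96, 3.61 to 4.32), and no UMI was found in T or NK cell-like cells of any library. Thinned to 2000 UMIs, 1.68% of macrophage-like cells held Ppbp in control dpi2 and 10.3% in KO dpi2. Macrophage-like cells gave 87.4% of all Ppbp UMIs in control dpi2, 85.9% in KO dpi2, 90.1% in control dpi4 and 97.2% in KO dpi4. The transcript was unevenly spread, with 88.6% of its UMIs in the highest 5% of macrophage-like cells in control dpi2 and 74.7% in KO dpi2, where 1 cell with 548 UMIs held 14.0%. Among clusters, Ppbp was highest in cluster 5 (143 CPM), most of whose cells were macrophage-like cells of KO dpi2, and next in cluster 6 (43.1 CPM).

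Pf4 was seen in most macrophage-like cells. It had 3201, 5198, 1074 and 1689 CPM there in control dpi2, KO dpi2, control dpi4 and KO dpi4, and the dpi2 libraries differed by a ratio of 1.62 (1.61 to 1.64) and the dpi4 libraries by 1.57 (1.56 to 1.59). Both libraries labelled KO thus stood above the control of the same day, by less than 2-fold. Monocyte-like cells had 181, 889, 325 and 324 CPM, a ratio of 4.91 (4.75 to 5.08) at dpi2 and of 0.997 at dpi4. Thinned shares in monocyte-like cells were 17.5% and 33.9% at dpi2, and those in T or NK cell-like cells 12.4% and 29.7%, so that the share in monocyte-like cells was close to the background. When monocyte-like and macrophage-like cells were pooled, the log2 difference of Pf4 at dpi2 was 0.96, below 2-fold, in place of 2.30. Macrophage-like cells gave 91.9% to 98.8% of all Pf4 UMIs in every library.

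Most cells with Ppbp also held Pf4. Pf4 was seen in 97.0% of thinned macrophage-like cells with Ppbp in control dpi2 and in 82.3% of those without, and in 98.2% against 87.2% in KO dpi2. Unthinned, 165 macrophage-like cells of control dpi2 and 338 of KO dpi2 held a Ppbp UMI, with median depths of 21392 and 28020 UMIs against 17587 and 25253 UMIs in the others. Platelet markers were near 0: 9 such genes summed to 1.67, 1.32, 4.72 and 3.74 CPM in macrophage-like cells of the 4 libraries, and in KO dpi2 Gp1bb, Gp1ba and Tubb1 were among those at 0. Within KO dpi2, platelet markers had 1.16 CPM in macrophage-like cells with a Ppbp UMI and 1.40 CPM in those without, and in control dpi2 they had 5.71 and 1.21 CPM. The part of platelet RNA in the Ppbp and Pf4 levels was not tested.

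**Figure D4:**
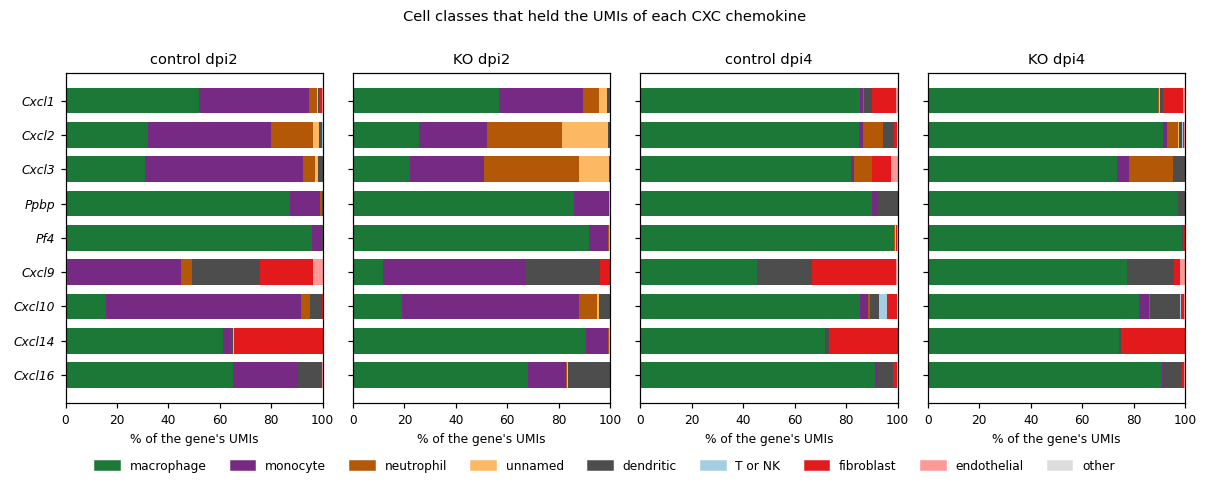
Percent of the UMIs of each CXC chemokine gene that came from each cell class, as stacked bars for the 4 libraries. Macrophage-like cells gave 85.9% to 97.2% of Ppbp and 91.9% to 98.8% of Pf4, and between control dpi2 and KO dpi2 the neutrophil-like part of Cxcl3 went from 4.78% to 37.1%.

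The interferon-induced members ran the other way at dpi2. Cxcl10, a ligand of Cxcr3, had 875 CPM in monocyte-like cells of control dpi2, 372 CPM in KO dpi2, 761 CPM in control dpi4 and 858 CPM in KO dpi4. In control and KO dpi4, with 52 and 51 monocyte-like cells, the 3 cells with the most Cxcl10 held 71.2% and 92.7% of its UMIs. The dpi4 levels thus rest on few cells. Among the 4 libraries only KO dpi2 had a low Cxcl10 level, 2.35-fold below control dpi2 (ratio 0.426, 0.413 to 0.439). It was 2.63-fold lower in macrophage-like cells (125 and 47.6 CPM, ratio 0.380, 0.358 to 0.403), 4.10-fold lower in neutrophil-like cells (754 and 184 CPM, ratio 0.244, 0.220 to 0.270) and 4.05-fold lower in dendritic cell-like cells (345 and 85.3 CPM, ratio 0.247, 0.218 to 0.279). Cxcl10 thus fell in all 4 of these classes at dpi2. Thinned shares with a Cxcl10 UMI were 27.4% in control dpi2 and 15.2% in KO dpi2 for monocyte-like cells, 15.5% and 5.42% for neutrophil-like cells and 2.06% and 0% for T or NK cell-like cells. Monocyte-like cells were the main source at dpi2, with 75.7% and 68.8% of Cxcl10 UMIs, and macrophage-like cells at dpi4, with 85.3% and 81.9%. The highest cluster was 0 (1125 CPM), led by Plac8, Vcan, Ly6c2, Chil3 and Klra2. In T or NK cell-like cells of control dpi4, which had 750 CPM, 4 cells held 84.2% of the Cxcl10 UMIs.

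Cxcl9, the other Cxcr3 ligand, was scarce at dpi2. In dendritic cell-like cells it had 23.3, 3.94, 48.3 and 60.2 CPM in control dpi2, KO dpi2, control dpi4 and KO dpi4. The dpi2 ratio was 0.169 (0.0910 to 0.293), but 1 cell held 83.2% of the UMIs in control dpi2. In monocyte-like cells the dpi2 levels were 5.92 and 2.07 CPM (ratio 0.350, 0.227 to 0.523), and the log2 difference of -1.51 became -0.30 when the mean over cells was used. Without the 1% of dendritic cell-like cells with the most Cxcl9, the log2 difference in that class was 0.60 in place of -2.56. Macrophage-like cells had 0.104 and 0.198 CPM at dpi2 and 7.58 and 20.3 CPM at dpi4, so that the dpi4 libraries stood above both dpi2 libraries. Among clusters Cxcl9 was highest in cluster 19 (124 CPM), a dendritic cell-like cluster led by Ccr7, Fscn1, Tbc1d4, Il4i1 and Ccl5.

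The lists of related genes at dpi2 varied by list and by class. Of 11 interferon-induced genes, 10 fell in macrophage-like cells (median log2 difference -1.64), 11 in monocyte-like cells (-1.43), all 10 with enough UMIs in neutrophil-like cells (-2.47) and 7 in dendritic cell-like cells (-1.12). Ifit3, an antiviral interferon target, went from 135 CPM in control dpi2 to 32.2 CPM in KO dpi2 in macrophage-like cells and from 740 to 78.5 CPM in neutrophil-like cells. Of the 10 measured genes upstream of these (interferon receptors, Stat and Irf factors and feedback), 2 fell in macrophage-like cells and 8 did not pass the rule, with a median log2 difference of -0.10. The 2 were Irf7, the regulator that amplifies interferon production (196 to 64.5 CPM), and Stat2, a signal transducer of the interferon receptor (51.2 to 22.4 CPM). Of 12 genes that feed or curb NF-kB signalling, 3 rose in macrophage-like cells, namely Il1b (99.3 to 508 CPM, ratio 5.11), Il1a (2.65 to 25.6 CPM, ratio 9.64) and the NF-kB inhibitor Tnfaip3 (207 to 416 CPM, ratio 2.01), and none of the 12 changed in neutrophil-like cells (median log2 difference -0.21). Of the genes that act with the neutrophil attractants, Csf3, the growth factor of neutrophils, rose from 0.442 to 5.54 CPM in macrophage-like cells, Il6 from 0.781 to 7.58 CPM and Ptgs2, a prostaglandin synthase, from 88.7 to 274 CPM, which makes 3 of the 5 with enough UMIs, whereas none of 3 measured changed in neutrophil-like cells. In monocyte-like cells Il1b, Il1a, Csf3, Il6 and Ptgs2 rose too, with ratios of 2.68, 4.15, 4.08, 3.23 and 3.07. Of 9 measured genes that bind or shed chemokines, the protease gene Mmp9 rose in macrophage-like cells (8.20 to 19.8 CPM). Mmp9 is also 1 of the neutrophil markers whose sum was higher in that class in KO dpi2. None of 3 measured CXC receptors changed in macrophage-like or in neutrophil-like cells. These lists were drawn up with earlier results of these data known, and their counts in macrophage-like cells stand beside the 5.01% of all genes that changed there.

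**Figure D5:**
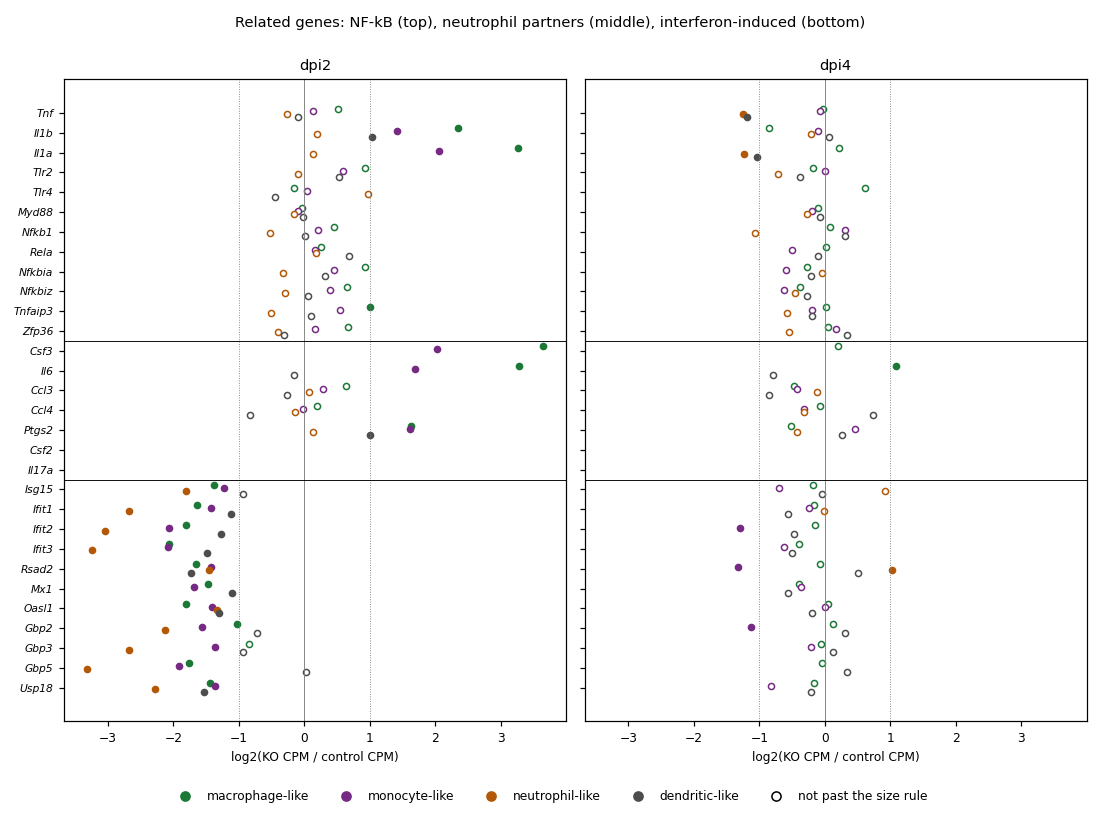
Log2 of the KO over control level of genes of NF-kB signalling, of genes that act with neutrophil attractants and of interferon-induced genes, by cell class, at dpi2 and at dpi4. At dpi2 the interferon-induced genes lie left of 0 in macrophage-like, monocyte-like, neutrophil-like and dendritic cell-like cells, except Gbp5 in the last (0.02), and at dpi4 none of the 11 changed in macrophage-like or dendritic cell-like cells, 3 fell in monocyte-like cells (Ifit2, Rsad2 and Gbp2) and Rsad2 rose in neutrophil-like cells.

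Cxcl16 and Cxcl14 differed little between genotypes in macrophage-like cells. Cxcl16, the ligand of Cxcr6, had 128, 141, 365 and 371 CPM there in control dpi2, KO dpi2, control dpi4 and KO dpi4, with KO over control ratios of 1.11 (1.06 to 1.15) and 1.02 (0.997 to 1.04). The split was by day, with both dpi4 libraries above both dpi2 libraries. Dendritic cell-like cells had 178, 272, 344 and 389 CPM of Cxcl16 and T or NK cell-like cells 4.61 to 9.87 CPM. With libraries clustered separately, the log2 difference of Cxcl16 in dendritic cell-like cells was -2.07 at dpi2 in place of 0.61. With time in the controls it was -1.83 there in place of 0.95. The Cxcl16 sheddases, Adam10 (131, 149, 108 and 140 CPM) and Adam17 (132, 152, 160 and 172 CPM), did not pass the rule in macrophage-like cells. Cxcl14 had 11.8, 8.14, 12.2 and 12.8 CPM in macrophage-like cells, a dpi2 ratio of 0.691 (0.589 to 0.808). Over all kept cells it fell 2.02-fold at dpi2, from 10.3 to 5.09 CPM. Fibroblast-like cells gave 34.6% of Cxcl14 UMIs in control dpi2 from only 5 cells, of which 1 held 98.8%, and 0% in KO dpi2 from 3 cells. The log2 difference over all kept cells, -1.01, lay between -1.14 and -0.79 under the alternatives and was below 2-fold with no doublets removed (-0.85).

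At dpi4 fewer members differed between the genotypes. In macrophage-like cells 1 of 9 changed, where 2.66% of 12083 genes did, in monocyte-like cells 2 of 5 against 3.76% of 2818 genes, in neutrophil-like cells 0 of 3 against 5.87% of 1618 genes, in dendritic cell-like cells 3 of 6 against 2.74% of 8458 genes, and over all kept cells 0 of 9 against 3.40% of 13311 genes. The change in macrophage-like cells was Cxcl9, from 7.58 to 20.3 CPM (ratio 2.67, 2.39 to 2.99). Cxcl1 in macrophage-like cells was 85.0 CPM in control dpi4 and 46.0 CPM in KO dpi4, a ratio of 0.541 (0.515 to 0.569), the reverse of its order at dpi2, and the log2 difference of -0.89 was -0.13 with libraries clustered separately. Cxcl1 fell in dendritic cell-like cells from 42.1 to 7.03 CPM (ratio 0.167, 0.107 to 0.251) and Cxcl2 from 897 to 217 CPM (ratio 0.242, 0.225 to 0.261). Cxcl10 rose there from 86.9 to 246 CPM (ratio 2.83, 2.52 to 3.19), whereas the thinned share of cells with Cxcl10 was 7.10% and 4.59%, so that no order is read from it. Of the Cxcl10 UMIs in those cells, 1 cell of KO dpi4 held 38.7%, and without the 1% of cells with the most Cxcl10 the log2 difference was -0.19, no longer an increase. The directions of Cxcl1 and Cxcl2 in this class turned under other settings, for causes that were not tested: the log2 difference of Cxcl1 was 0.25 with mitochondrial counts up to 20%, and that of Cxcl2 was 0.40 with at least 200 detected genes per cell and 0.09 at a clustering resolution of 0.5. The monocyte-like class held 52 and 51 cells at dpi4, and its difference in Cxcl1 was 67 UMIs against 1, of which 1 control cell held 58.2%, and Cxcl16 was lower there by a ratio of 0.332 (0.221 to 0.488), a difference that went to 0.02 on the log2 scale when monocyte-like and macrophage-like cells were pooled. Cxcl3 in neutrophil-like cells, with 6 and 11 UMIs, had a ratio of 6.45 (2.19 to 21.3), under the UMI minimum.

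The dpi4 libraries also differed in RNA of other cells. In macrophage-like cells 9 muscle genes summed to 116 CPM in control dpi4 and 43.8 CPM in KO dpi4, with none at 0, and 7 fibroblast genes to 35.8 and 17.7 CPM, also with none at 0. The muscle genes summed in dendritic cell-like cells to 65.7 and 13.8 CPM, the fibroblast genes to 25.8 and 5.73 CPM and the neutrophil markers to 197 and 111 CPM. Fibroblast-like cells, of which there were 148 and 44, had 170 and 126 CPM of Cxcl1 and 103 and 20.7 CPM of Cxcl9 at dpi4, and 1 control cell held 75.8% of the Cxcl9 UMIs. The part of such RNA in the dpi4 differences was not tested.

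From dpi2 to dpi4, Cxcl3, Ppbp and Pf4 fell and Cxcl9 and Cxcl16 rose in macrophage-like cells of both genotypes. These comparisons use the same 4 libraries as those between genotypes, so they are no independent evidence. In macrophage-like cells 5 of 9 members changed in the controls, where 17.1% of 11887 genes did, and 8 of 9 in the KO libraries, where 14.1% of 11484 genes did. Cxcl3 fell 7.77-fold in the controls (8.38 to 1.08 CPM) and 57.1-fold in the KO libraries (55.4 to 0.970 CPM). Ppbp fell 9.05-fold and 59.7-fold, and Pf4 2.98-fold and 3.08-fold. With monocyte-like and macrophage-like cells pooled, Pf4 in the controls was 1.84-fold lower, no longer past the rule. By dpi4 the genotypes were close for Cxcl3 and Ppbp, at 1.08 and 0.970 CPM of Cxcl3 and 1.61 and 2.17 CPM of Ppbp. Cxcl1 and Cxcl2 fell 5.55-fold and 3.51-fold in the KO libraries, while their dpi4 over dpi2 ratios in the controls were 0.675 and 0.676 (for Cxcl2 a 2.17-fold fall in the pooled cells). Cxcl16 was 2.86 (2.77 to 2.95) and 2.63 times higher at dpi4, and Cxcl9 72.9 (28.3 to 269, from 4 and 471 UMIs) and 103 (46.9 to 280) times higher. These Cxcl9 ratios rest on 4 and 6 UMIs at dpi2, and in the pooled cells they were 3.03 (2.53 to 3.65) and 25.5 (18.2 to 36.9). Cxcl10 had dpi4 over dpi2 ratios of 1.29 in the controls and 2.87 in the KO libraries, but in the pooled cells a ratio of 0.387 (a 2.59-fold fall) in the controls and a log2 difference of -0.07 in the KO libraries, so its direction with time depended on where the class boundary was set.

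In neutrophil-like cells 2 of 5 members changed with time in the controls, against 15.2% of 4287 genes, and 2 of 5 in the KO libraries, against 16.9% of 4742 genes. In the controls these were Cxcl1 (209 to 86.1 CPM) and Cxcl10 (754 to 288 CPM), and in the KO libraries Cxcl1 (289 to 9.47 CPM, the latter from 1 UMI) and Cxcl3 (967 to 104 CPM). Without the 1% of cells with the most Cxcl10, its log2 difference in the controls was -0.73, below 2-fold, in place of -1.39. With cluster 15 added, the log2 difference of Cxcl1 with time in the KO libraries was -1.30 in place of -4.93. That of Cxcl2 was then -1.19, past the rule, in place of -0.97, and it was -1.25 with median-ratio scaling. In dendritic cell-like cells 3 of 6 changed in the controls, against 6.31% of 8465 genes, with Cxcl1 and Cxcl9 up and Cxcl10 down. In the KO libraries 4 of 6 did, against 6.74% of 8181 genes, with Cxcl9 and Cxcl10 up and Cxcl1 and Cxcl2 down. The directions of Cxcl1 and Cxcl2 in this class turned with the settings: the log2 difference of Cxcl1 in the controls was -0.78 with mitochondrial counts up to 20%, and in the KO libraries 0.48 with libraries clustered separately, where Cxcl2 in the KO libraries was 0.23 too. That of Cxcl10 in the KO libraries was 0.56, below 2-fold, without the 1% of cells with the most Cxcl10.

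Cxcr2, the receptor of the neutrophil attractants, had its highest levels in neutrophil-like cells. It had 967, 1214, 648 and 511 CPM in neutrophil-like cells and 1.30, 2.47, 0.853 and 0.434 CPM in macrophage-like cells of control dpi2, KO dpi2, control dpi4 and KO dpi4. Cxcr3 had 32.3, 85.4, 57.3 and 49.5 CPM and Cxcr6 129, 245, 223 and 152 CPM in T or NK cell-like cells, which hold the receptors of Cxcl9, Cxcl10 and Cxcl16. Among the ligands outside the 9, Cxcl5, a further Cxcr2 ligand, had 0.208 and 4.09 CPM in macrophage-like cells at dpi2 (ratio 19.6, 9.66 to 46.5, from 8 and 124 UMIs). Cxcl12, the ligand of Cxcr4, had 1835, 691, 1435 and 1178 CPM in endothelial-like cells, which numbered 10 to 34 per library. Cxcl15 and Cxcl17 had no UMI in any library.

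Over 29 combinations of cluster and library and 10638 genes, the pattern of each member was compared with those of the other genes by Pearson's r of log2(CPM + 1), as a description, since the units share libraries and cells. Cxcl2 was most like Tnf (0.944), Cebpb (0.941) and Il1rn (0.928), and Cxcl3 most like Slpi (0.924), Sod2 (0.923) and Ehd1 (0.886). Pf4 was most like Stab1 (0.940) and Ctsl (0.923), and Cxcl10 most like Ifit3 (0.780), Parp14 (0.775) and Ifit1 (0.774). Cxcl1 was nearest to Ier3 (0.869) and Thbs1 (0.867), Cxcl16 to Ctsh (0.947) and Soga1 (0.945), Cxcl14 to Bsg (0.905), Cxcl9 to Neurl1b (0.787) and Ppbp to Ywhag (0.744). Between members, r was 0.84 for Cxcl1 with Cxcl2 and for Cxcl2 with Cxcl3, 0.64 for Ppbp with Pf4 and 0.31 for Cxcl9 with Cxcl10. Among the 5 genes of the plus-strand group r ran from 0.09 (Cxcl3 with Pf4) to 0.84, and with Cxcl9 each of them had an r between -0.42 and -0.19.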

How the data were processed

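Droplet-based 3′ single-cell RNA sequencing of CD45+ muscle cells was analysed in 4 libraries, 1 per group. The authors made the deposited UMI count matrices with Cell Ranger 6.1.2 on mm10. They are raw counts without normalization, they held only barcodes with at least 500 UMIs, and total counts are given in the report. The labels and the study's methods name different versions of the library kit.

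Cells with under 10% mitochondrial counts and at least 500 detected genes were kept, and 289, 115, 150 and 100 barcodes (control dpi2, KO dpi2, control dpi4, KO dpi4) were removed as likely doublets by a simulation-based score, at 0.8% per 1000 cells. With scanpy 1.11.5, leidenalg 0.10.2, scipy 1.17.1 and numpy 2.4.6, each cell was scaled to a total of 10000 on a log scale, and 2000 variable genes, 30 principal components, 15 neighbours and a resolution of 1.0 gave the clusters. The members and related genes (73 in all) were kept out of the variable genes. Of 117 marker genes 115 were matched (not Trac and Ighm), and of 67 related genes 66 (not Cxcl11).

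UMIs were summed per class and library. Levels have exact Poisson intervals, ratios exact conditional binomial intervals and shares Clopper-Pearson intervals, all at 95%. Where a class held no UMI, the floor was 3 counts. A change needed at least 2-fold, an interval that left out 1 and 50 UMIs in the pair. All members were named, with the related genes past the same rule and the 3 genes most alike. The scripts were tested on simulated data. The members, lists and rules were chosen with earlier results of these data known. Alternatives were other filters, scalings, clusterings and rules. The leading genes of cluster 5 are not reported here.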

Additional observations from a re-analysis of the deposited data

Results flagged for a closer look

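In macrophage-like, monocyte-like, neutrophil-like and dendritic cell-like cells, among combinations with at least 50 UMIs on both days, the log2 difference between KO and control had opposite signs at dpi2 and dpi4, with intervals that left out 0 on both days and at least 2-fold on 1 of them, for the 6 combinations of gene and class given here. These differences between the days were not tested, since each rests on 4 single libraries. For Cxcl1 it was 1.02 at dpi2 and -0.89 at dpi4 in macrophage-like cells, a shift of -1.91. In monocyte-like cells it was 1.07 and -5.73 (shift -6.80), the latter from 1 UMI in KO dpi4 and 67 in control dpi4. For dendritic cell-like cells it was 1.02 and -2.58 (shift -3.60).

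In dendritic cell-like cells Cxcl2 had log2 differences of 0.55 at dpi2 and -2.05 at dpi4 (shift -2.60). Cxcl9 had -2.56 and 0.32 (shift 2.88) and Cxcl10 -2.02 at dpi2 and a positive difference at dpi4 (shift 3.52). For Cxcl1, Cxcl9 and Cxcl10 in this class, 1 cell held a large part of the UMIs of a library, namely 41.9% of Cxcl1 in KO dpi2 and 38.1% in control dpi4, 83.2% of Cxcl9 in control dpi2, 62.3% in control dpi4 and 66.2% in KO dpi4, and 56.6% of Cxcl10 in KO dpi2 and 38.7% in KO dpi4. Cxcl2 also had opposite signs, below 2-fold on both days, in macrophage-like cells (0.89 and -0.35) and in monocyte-like cells (0.91 and -0.32).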

How the results depend on the processing

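No paired analysis was possible because each group was 1 library. For the same reason no library could be left out. The limits are that no spread between animals or libraries was measured, that classes with few cells (monocyte-like and neutrophil-like cells at dpi4) and genes with few UMIs allow only wide intervals, and that dendritic cell-like results move with the cells assigned to that class. Of 974 log2 differences of members under an alternative, 630 stayed within the counting interval of the reported value, 333 moved beyond it and 11 that had passed the rule changed sign, and of 179 alternative counts of changed members 160 stayed within 1.5 times the reported one. The causes of the shifts below were not tested.

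Counts of changed members that moved were the following. At dpi2, neutrophil-like cells had 4 in place of 2 with median-ratio scaling and with a 1.5-fold rule, and dendritic cell-like cells had 2 in place of 4 with no doublets removed and 1 with a minimum of 200 UMIs. At dpi4, macrophage-like cells had 2 in place of 1 with at least 200 detected genes per cell and 3 at 1.5-fold, and monocyte-like cells had 1 in place of 2 with mitochondrial counts up to 20% or when pooled with macrophage-like cells, and 0 with a minimum of 200 UMIs. Neutrophil-like cells at dpi4 had 1 in place of 0 with each library clustered by itself, median-ratio scaling, a minimum of 20 UMIs, a 1.5-fold rule, or cluster 15 added (chosen after seeing the data). Dendritic cell-like cells at dpi4 had 0 in place of 3 with the 20% limit and 1 with each library clustered by itself, and all kept cells 3 in place of 0 at 1.5-fold. With each library clustered by itself, dendritic cell-like cells had 6 changes with time in place of 3 in the controls and 2 in place of 4 in the KO libraries.

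Log2 differences reversed, mostly in dendritic cell-like cells. With each library clustered by itself, Cxcl1 there was -0.70 at dpi2, and with time in the KO libraries Cxcl1 was 0.48 and Cxcl2 0.23. Under the same setting Cxcl16 there, which had not passed the rule, went to -2.07 at dpi2 and to -1.83 with time in the controls. With the 20% limit, Cxcl1 there was 0.25 at dpi4 and -0.78 with time in the controls. Cxcl2 there at dpi4 was 0.40 with at least 200 detected genes and 0.09 at a resolution of 0.5. Without the 1% of cells with the most UMIs of the gene (chosen after seeing the data), Cxcl9 there was 0.60 at dpi2 and Cxcl10 -0.19 at dpi4. Pooling monocyte-like with macrophage-like cells gave 0.02 for Cxcl16 in the former at dpi4 and -0.07 for Cxcl10 in the latter with time in the KO libraries, and in the controls it turned Cxcl10 to -1.37 and took Pf4 to -0.88, below 2-fold, and Cxcl2 to -1.12, past it. Under every alternative run, Cxcl3 at dpi2 was higher in KO, by 4.46 to 7.23 in neutrophil-like and 2.56 to 3.37 in macrophage-like cells, and Ppbp by 3.07 to 3.51 in macrophage-like cells.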
